A study of Sus scrofa with 13 samples.

Results

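The genes described here carry glucose into the cell, break it down to pyruvate, turn pyruvate into lactate and back, and build or break glycogen. They were fixed as a list of 31 gene symbols. A gene was taken as measured where the annotation of the array gave a probe set with that symbol alone, and the probe set with the highest mean log2 intensity over the 13 arrays stood for it. Of the 31 symbols 22 had such a probe set among 6765 genes with a single symbol on the array, and 19 of these were bright enough to be tested. HK2, PFKFB2, PFKFB3, ALDOA, PGAM1, SLC16A1, PYGB and GBE1 were not analysed here, nor was PKM2, an older symbol of PKM.

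The animals were 13 miniature pigs, female Sinclair miniswine, operated on at 3 months of age. In all of them diagonal side branches of the LAD, the coronary artery that feeds the front of the left ventricle, were permanently tied, so that every heart described here was infarcted. Then 7 animals received 50000000 cells, called stem cells or MPCs in the labels, as 10000000 in each of 5 sites of the border zone around the infarct, in 2 ml saline, and 6 received 2 ml saline at 5 similar sites. Heart muscle was taken by drill biopsy at month 4 and hybridised to an Affymetrix porcine array, 1 array per animal. The labels do not say where a biopsy lay relative to the scar, nor from which donors the cells came.

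Glucose enters heart muscle through the carriers GLUT1 and GLUT4. Hexokinase traps it as glucose 6-phosphate, which either enters glycolysis or is stored as glycogen. Phosphofructokinase commits it to glycolysis, and the lower part of the pathway yields ATP, NADH and pyruvate. A healthy adult heart burns mainly fatty acids, and a greater reliance on glucose is a known feature of stressed and failing hearts. Several steps have a muscle-type enzyme and a more widely expressed one, such as PFKM and PFKP, PGAM2 and PGAM1, or ENO3 and ENO1. Lactate dehydrogenase also has more than one form, among them LDHB, the heart-type one, and LDHA, but this pair does not follow that pattern.

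All differences below are log2 differences, stem cells minus saline, with the standard error (SE) of limma, a linear model fitted to all 14399 probe sets tested. P-values were adjusted over all of them, and the call was an adjusted p under 0.05. Of the 14399 probe sets 0 (0%) were called, the smallest adjusted p being 0.393, while 1519 (10.5%) had an unadjusted p under 0.05. Array medians lay between 13.5 and 14 intensity units, and arrays correlated pairwise at 0.936 to 0.986. The number of arrays limits the precision. In RNA from whole tissue, fewer cells of a type and less RNA per cell cannot be told apart.

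As a group these genes had mostly negative differences, of small size. Among the 19 tested genes 17 were below 0, against 47.2% of all probe sets tested. Their median difference was -0.21, against 0.02 over all. All probe sets tested include ones without a gene symbol, so they are not a like set. Tested genes with a known genomic span, each by its brightest probe set, had medians of -0.17, -0.04 and 0.02 in bins of short, middle and long span. The listed genes at an unadjusted p under 0.05 were GYS1 and PFKP, both lower. That is 10.5% of the 19 genes, where 5.15% of all probe sets tested were lower and 5.4% higher at this level. No tested gene of the list passed the adjusted threshold, and 0 had groups that did not overlap (0.16% of all probe sets did not overlap and were lower, 0.118% higher). The sign count leaned on the animals stem cells 2 and stem cells 4. Without both, an alternative added after the values were seen, 11 of 19 were negative, with a median of -0.04, against 48.2% of all probe sets.

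**Figure D1:**
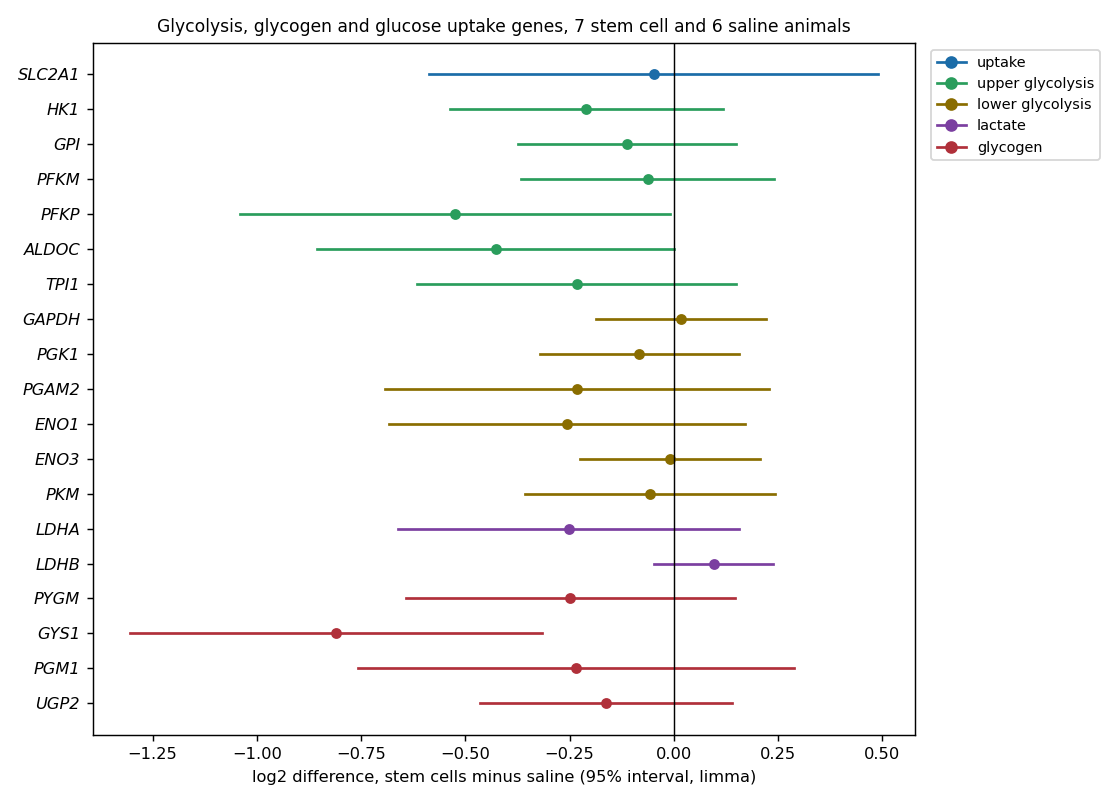
Log2 difference between 7 stem cell and 6 saline animals for the 19 tested genes, coloured by role; points are limma estimates and lines their 95% intervals. GYS1 (-0.81) and PFKP (-0.52) are the genes whose interval lies below 0, and GAPDH and LDHB are the ones with a positive estimate.

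For glucose uptake, SLC2A1, which encodes the basal carrier GLUT1, did not differ beyond its spread. Its log2 intensity after stem cells was 4.64 at the lowest, 5.21 at the median and 6.16 at the highest, and after saline 4.87, 5.34 and 5.90. Stem cells 3 and saline 3 were the highest of their groups, and the groups overlapped over most of their range. The difference was -0.05 ± 0.25 (SE), with an adjusted p of 0.955 (limma). Its sign was not stable: it was 0.07 without saline replicate 3, and 0.01, 0.05 and 0.03 without stem cells replicates 1, 2 and 4. SLC2A4, the insulin-responsive carrier GLUT4 that dominates in adult muscle, could not be judged. Its brightest of 3 probe sets had means of 3.10 ± 0.07 (SD, n = 7, stem cells) and 3.17 ± 0.15 (SD, n = 6, saline), under the level of 3.36 required for testing and not far above 2.58, the highest mean of control probe sets without a porcine target.

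Upper glycolysis, from hexokinase to the triose phosphates, was represented by 6 tested genes, each with a negative difference and a median of -0.22. PFKP, the platelet-type phosphofructokinase found in many cell types, ranged after stem cells from 5.41 to 6.73 with a median of 6.17, and after saline from 5.99 to 7.27 with a median of 6.70. The group means were 6.14 ± 0.45 (SD, n = 7) and 6.67 ± 0.45 (SD, n = 6). In 6 of 7 stem cell animals PFKP was below the saline mean, with stem cells 2 the lowest of all 13 animals and saline 2 the highest. Its difference of -0.52 ± 0.24 (SE) had an adjusted p of 0.464 (limma). It was -0.40 without stem cells replicate 2 and -0.405 without saline replicate 2.

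The fructose bisphosphate aldolase ALDOC, the form best known from brain, had a similar profile. It ranged from 4.72 to 5.88 after stem cells, with a median of 4.96, and from 5.32 to 5.90 after saline, with a median of 5.57. In 5 of the 7 animals given cells ALDOC was under the saline minimum, while stem cells 1 (5.88) was just under the saline maximum. The difference was -0.43 ± 0.20 (SE), with an adjusted p of 0.474 (limma).

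The muscle-type phosphofructokinase PFKM stood nearer to 0, at -0.06 ± 0.14 (SE), and was 0.0006 without stem cells replicate 4. Its median was 12.28 after stem cells and 12.54 after saline. The stem cell animals were 2 high ones, stem cells 3 (12.90) and stem cells 6 (12.93), above every saline animal, and 5 others between 12.05 and 12.37. PFKL, the liver-type subunit, averaged 3.22 ± 0.63 (SD, n = 7) and 3.25 ± 0.28 (SD, n = 6) and was too dim to be tested. Relative to PFKM on the same array, PFKP stood on the log2 scale at -6.29 ± 0.67 (SD, n = 7, stem cells) and -5.83 ± 0.39 (SD, n = 6, saline). In 3 stem cell animals the value was under the saline minimum, and the groups overlapped.

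HK1, the hexokinase of most tissues, had a difference of -0.21 ± 0.15 (SE) and was below the saline mean in 6 of 7 stem cell animals. Its lowest value, 10.72 in stem cells 2, stood apart from the others, and without that animal the difference was -0.12. GPI, which converts glucose 6-phosphate to fructose 6-phosphate, was at -0.11 ± 0.12 (SE), and at -0.03 without stem cells replicate 2. TPI1, which interconverts the triose phosphates, had a difference of -0.23 ± 0.18 (SE). Its saline values lay close together, from 11.28 to 11.63. The stem cell values split: 10.55 in stem cells 4 and 10.57 in stem cells 2, with the other animals between 11.16 and 11.62, of which stem cells 1 (11.16) was also under the saline minimum. Without stem cells replicate 4 the TPI1 difference was -0.13.

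**Figure D2:**
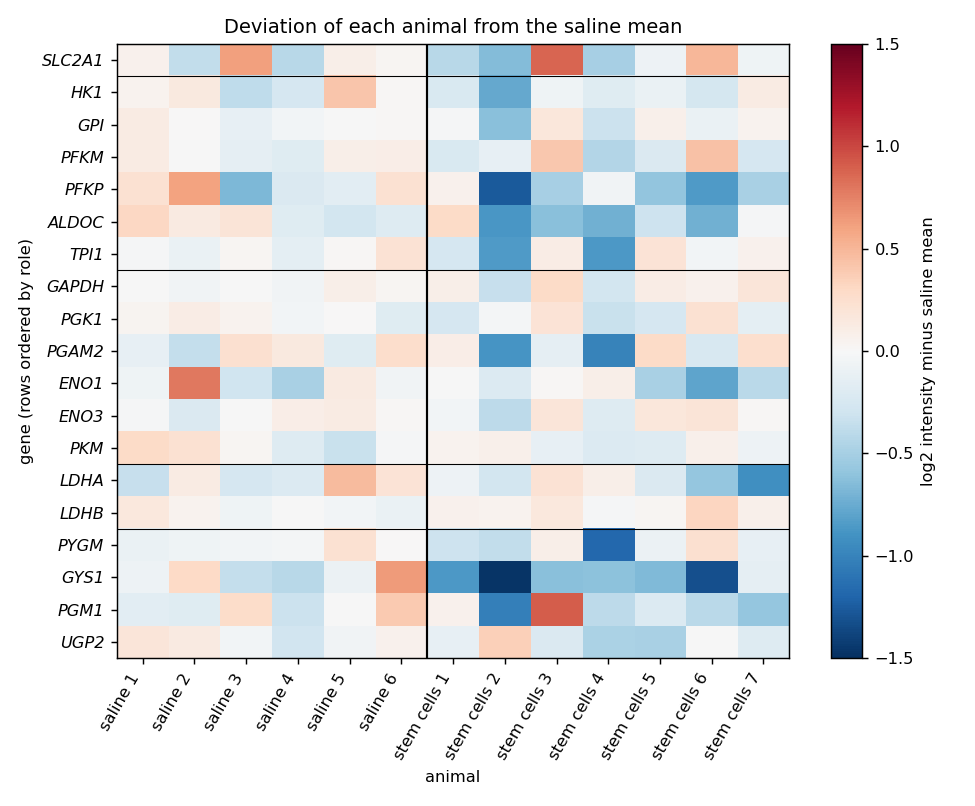
Log2 intensity of each animal minus the saline mean, for the 19 tested genes (rows, in order of role) and 13 animals (columns); blue is lower, red higher. Stem cells 2 and stem cells 4 hold most of the dark blue cells, while the GYS1 row is blue in 7 of 7 stem cell animals.

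Lower glycolysis, from glyceraldehyde 3-phosphate to pyruvate, held 6 tested genes with a median of -0.07, of which 5 were negative and 0 had an unadjusted p under 0.05. PGAM2, the muscle phosphoglycerate mutase, showed the same split as TPI1. Stem cells 4 (9.99) and stem cells 2 (10.10) lay below the saline range of 10.63 to 11.26, and the other 5 stem cell animals lay between 10.75 and 11.28. The PGAM2 difference was -0.23 ± 0.22 (SE), and stood at -0.105 and -0.123 with stem cells replicate 4 or 2 left out. PGK1, phosphoglycerate kinase, which makes the first ATP of the pathway, was at -0.08 ± 0.11 (SE). PKM, pyruvate kinase, was at -0.06 ± 0.14 (SE), from a probe set with a mean of only 5.47.

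The enolases differed in where their spread came from. ENO3, the muscle form, had a difference of -0.01 ± 0.10 (SE) with medians of 13.67 after stem cells and 13.66 after saline. It turned positive without saline replicate 4 (0.01) or 5 (0.02) and without stem cells replicate 2 (0.05) or 4 (0.02). ENO1, the widely expressed form, was at -0.26 ± 0.20 (SE). Saline 2 held its highest value, 11.28, and without that animal the difference was -0.10. ENO1 relative to ENO3 stood at -3.40 ± 0.47 (SD, n = 7, stem cells) and -3.15 ± 0.54 (SD, n = 6, saline), with overlapping groups.

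GAPDH, glyceraldehyde 3-phosphate dehydrogenase and a common reference gene, had 14 probe sets, 9 of them controls that the array carries for RNA quality. The leading probe set had a stem cell mean of 14.58 ± 0.24 (SD, n = 7) and a saline mean of 14.56 ± 0.05 (SD, n = 6), a difference of 0.02 ± 0.10 (SE). It was -0.03 and -0.01 without stem cells replicates 3 and 7, and -0.04 after a second quantile normalization. The group means were close, but the animals were not equally spread. Stem cells 2 (14.21) and stem cells 4 (14.29) lay below the saline range of 14.51 to 14.65, and the other 5 stem cell animals between 14.63 and 14.85, 4 of them above it. Of the 9 control probe sets 9 had a positive difference, between 0.02 and 0.18. Of the 14 probe sets 3 were negative, 2 of them dim: one with a mean of 4.03 was at -0.07, and one with a mean of 3.28, not tested, at -0.11. The third negative one had a mean of 11.72. Its stem cell mean was 11.53 ± 0.29 (SD, n = 7) and its saline mean 11.95 ± 0.23 (SD, n = 6). Its difference was -0.43 ± 0.15 (SE), with an adjusted p of 0.414 (limma), and 4 of 7 animals given cells were under the saline minimum. The probe sets named GAPDH therefore did not give one value for the gene.

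**Figure D3:**
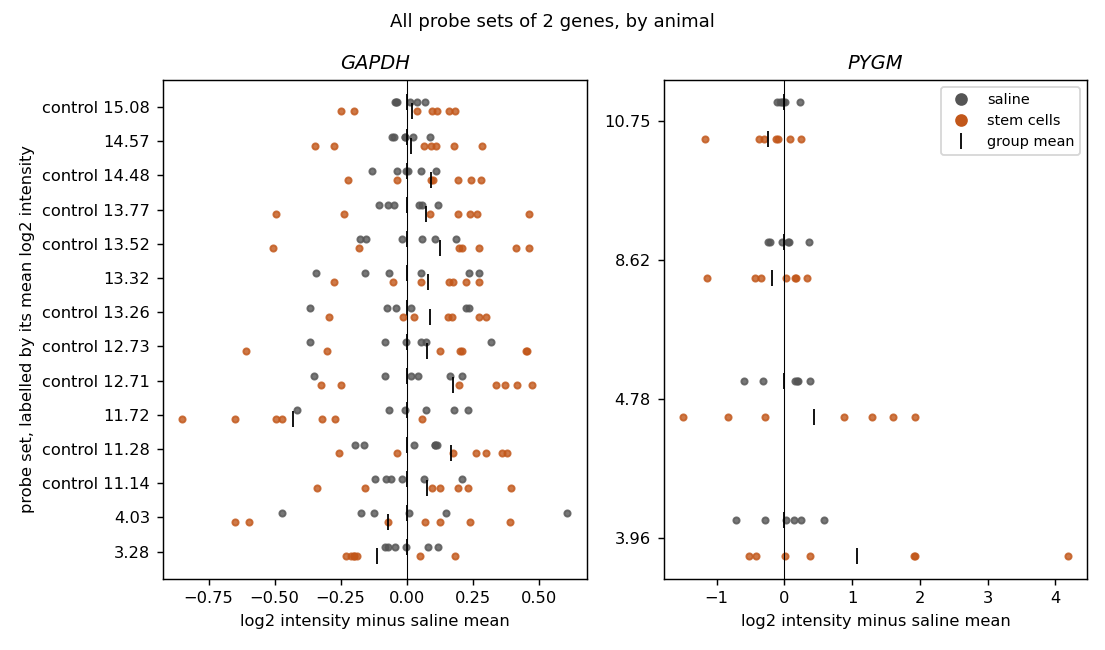
Log2 intensity minus the saline mean in each animal for the 14 GAPDH and 4 PYGM probe sets, each labelled by its mean log2 intensity; vertical ticks are group means. The GAPDH probe set at 11.72 has its stem cell mean at -0.43, and the dimmest PYGM probe set has stem cell values up to 4.19 above the saline mean.

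For lactate, the heart-type dehydrogenase LDHB was one of the few genes with a positive difference. Its values after stem cells were 14.44 at the lowest, 14.52 at the median and 14.78 at the highest, and after saline 14.36, 14.44 and 14.62. In 6 of 7 stem cell animals it lay above the saline mean, and the groups overlapped. The pig gene table holds more than one LDHB locus, so the probe set may read a near-identical copy and the value is uncertain. The difference was 0.10 ± 0.07 (SE), with an adjusted p of 0.614 (limma). LDHA, the other lactate dehydrogenase of the list, was at -0.25 ± 0.19 (SE), with medians of 10.08 and 10.26. Its lowest values came from stem cells 7 (9.38) and stem cells 6 (9.72), not from the animals lowest in TPI1 and PGAM2, and without stem cells replicate 7 the difference was -0.14. LDHA relative to LDHB stood at -4.51 ± 0.44 (SD, n = 7, stem cells) and -4.16 ± 0.37 (SD, n = 6, saline), with 2 animals given cells under the saline minimum. SLC16A3, the lactate exporter MCT4, was too dim to be tested, with means of 2.75 ± 0.29 (SD, n = 7) and 2.94 ± 0.24 (SD, n = 6).

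Glycogen genes included the largest difference in the list. GYS1, the glycogen synthase of muscle, had a log2 intensity after stem cells of 4.33 at the lowest, 5.13 at the median and 5.66 at the highest. After saline the values were 5.38, 5.71 and 6.43. In 6 of the 7 animals given cells GYS1 was under the saline minimum, and stem cells 7 fell within the saline range. The group means were 4.99 ± 0.46 (SD, n = 7) and 5.80 ± 0.40 (SD, n = 6), so that the stem cell mean was 0.57 times the saline mean on the linear scale. The difference of -0.81 ± 0.23 (SE) did not pass the adjusted threshold (adjusted p of 0.393, limma). It lay between -0.92 and -0.68 in 13 of 13 fits with 1 animal left out, and was -0.72 without both stem cells 2 and 4. The probe set was of low intensity, and the other 2 GYS1 probe sets, with means of 2.36 and 2.38, were under the control level of 2.58, so that the value for the gene rests on 1 probe set.

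PYGM, the muscle glycogen phosphorylase that releases glucose 1-phosphate, had a leading probe set at -0.25 ± 0.19 (SE). Its saline values ran from 10.78 to 11.12 and its stem cell values from 9.71 to 11.13. Stem cells 4 was the lowest, followed by stem cells 2 at 10.51, and 4 of 7 stem cell animals were under the saline minimum. Without stem cells replicate 4 the difference was -0.09. The probe set with a mean of 8.62 had the same sign, at -0.18 ± 0.22 (SE), and the other 2, both dimmer, had the opposite sign. The dimmest, with a mean of 3.96, had saline values from 2.67 to 3.97, whereas stem cells 3 was at 5.32, stem cells 5 at 7.58 and stem cells 7 at 5.30. Its difference was 1.07 ± 0.62 (SE), with an adjusted p of 0.558 (limma). The probe set with a mean of 4.78 also had its highest values in stem cell animals, 6.46 in stem cells 5 and 6.15 in stem cells 3, and a difference of 0.44 ± 0.49 (SE). The direction for PYGM thus depended on the probe set, and the mean of its tested probe sets gave 0.27.

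PGM1, which converts glucose 1-phosphate to glucose 6-phosphate, had the widest stem cell range of the 19 genes, from 9.65 in stem cells 2 to 11.59 in stem cells 3, against 10.36 to 11.08 after saline. Its difference was -0.23 ± 0.25 (SE), and stood at -0.10 and -0.43 with stem cells replicate 2 or 3 left out. UGP2, which makes the UDP-glucose that glycogen synthase uses, was at -0.16 ± 0.14 (SE), and -0.25 without stem cells replicate 2. That animal, low in most of these genes, had the highest UGP2 value of all 13 on this probe set, 11.25. A second tested UGP2 probe set, with a mean of 8.35, was at -0.13 ± 0.28 (SE). There saline 1 was the highest, at 9.05, and stem cells 2 was at 8.96.

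**Figure D4:**
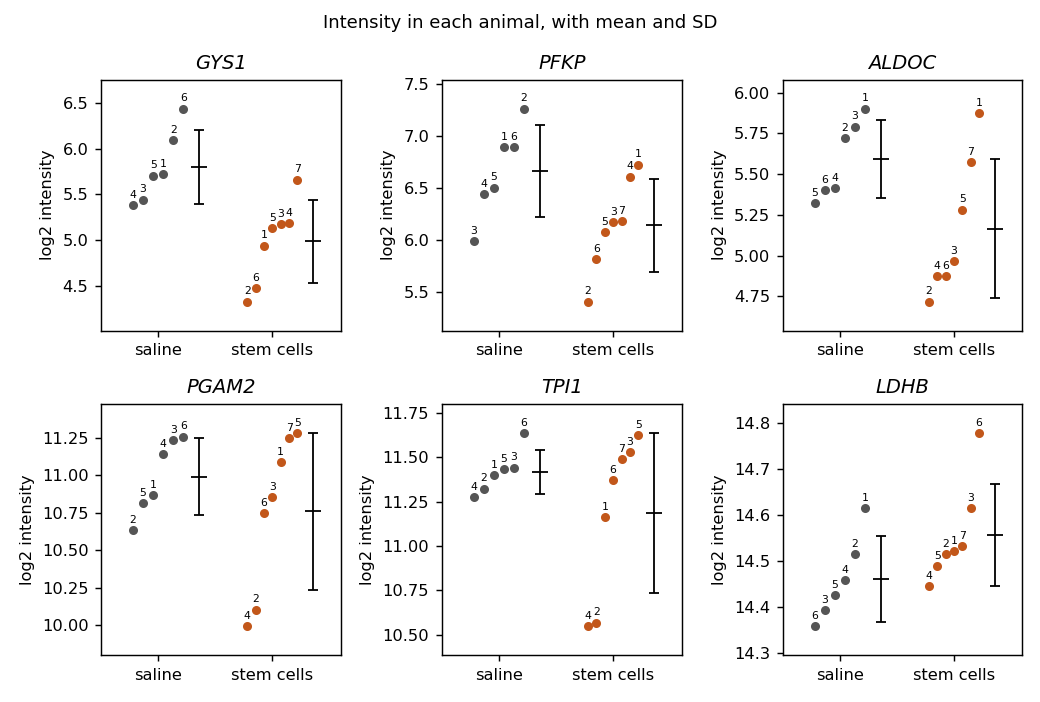
Log2 intensity of 6 genes in each animal, numbered by replicate, with the group mean and SD beside the points. GYS1 is below the lowest saline value in 6 of 7 stem cell animals, PGAM2 and TPI1 are lowest in stem cells 2 and 4 (TPI1 in stem cells 1, at 11.16, is also under the saline minimum), and LDHB overlaps with a slightly higher stem cell mean.

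The stem cell animals were more spread than the saline animals in these genes. The SD was larger after stem cells in 16 of the 19 genes, or 84.2%, against 52.8% of all probe sets tested, and more than 2 times as large in 8, or 42.1%, against 11.4% of all. No test was made of this difference in spread. Stem cells 2 had the lowest value of the 13 animals in 9 of the 19 genes and stem cells 4 in 5, whereas over all probe sets these animals were the lowest in 11.1% and 8.62%. Stem cells 6 held the highest value in 5 genes and stem cells 3 in 4, against 19.3% and 5.05% of all probe sets. Averaged over the 19 genes, stem cells 2 stood at -0.51 and stem cells 4 at -0.40 from the saline mean, and the other 5 stem cell animals between -0.17 and 0.07. The saline animals lay between -0.17 and 0.09.

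Without stem cells 2 and 4 the differences were as follows. GYS1 (-0.72), PFKP (-0.47), ENO1 (-0.34), LDHA (-0.32), ALDOC (-0.28) and UGP2 (-0.20) had differences of at least 0.2 below 0, of which that of GYS1 had an unadjusted p under 0.05 and that of PFKP no longer did. SLC2A1 (0.16), GPI (0.03), PFKM (0.03), TPI1 (0.02), PGAM2 (0.05) and ENO3 (0.10) turned positive. GAPDH went from 0.02 to 0.15, at an unadjusted p under 0.05 and an adjusted p of 0.526 (limma). These animals were singled out after their values were seen, as the lowest in these genes, so that differences nearer to 0 or above it follow in part from the choice.

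**Figure D5:**
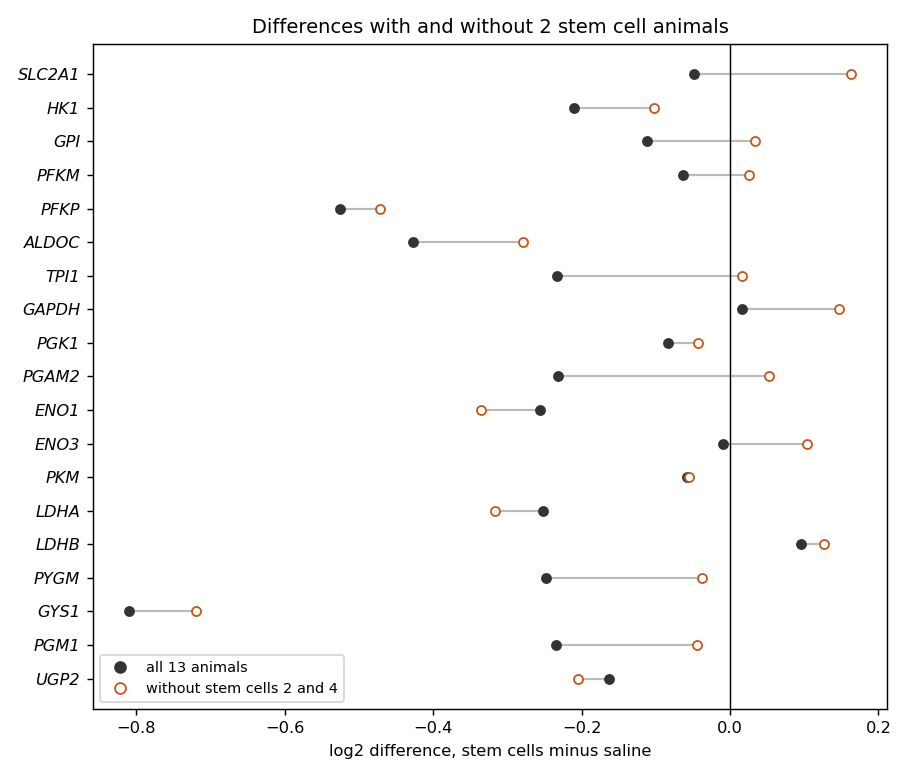
Log2 difference, stem cells minus saline, for the 19 tested genes with all 13 animals (filled) and without stem cells 2 and 4 (open). GYS1 moves from -0.81 to -0.72 and PGAM2 from -0.23 to 0.05.

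Cell type markers and RNA quality are given for the same arrays. All 12 measured of 15 cardiomyocyte markers were well above the control level, with summed intensities of 226000 to 267000 after stem cells and 218000 to 244000 after saline, so the tissue was heart muscle as labelled. Of these 12 markers 10 had a positive difference and 2 a negative one, with a median of 0.07. On the log2 scale these markers averaged 13.94 in stem cells 2 and 13.96 in stem cells 4, inside the saline range of 13.88 to 14.08. The 12 measured of 15 fibroblast and scar matrix markers summed to 18900 to 56300 after stem cells and 18000 to 60100 after saline. Of 11 tested 4 were negative (median of 0.18). The collagens COL3A1 (3.67), COL1A2 (3.69) and COL5A2 (3.13, not tested) were dim, so the sums rest on brighter genes such as SPARC (13.37), DCN (13.19) and LUM (12.32). The log2 mean of all 12 markers, dim ones included, was 8.91 in stem cells 2 and 9.33 in stem cells 4. The highest, 9.36, was in saline 2. The part of tissue makeup in the low values of stem cells 2 and stem cells 4 was not tested. With the difference between both marker means as a covariate GYS1 was at -0.81, PFKP at -0.52 and ALDOC at -0.43. GYS1 alone of the 19 genes had an unadjusted p under 0.05 in that fit, where 5.8% of all probe sets tested were lower at this level. This covariate could hardly move the estimates, because the marker means were alike in both groups. Cardiomyocyte markers averaged 14.04 (stem cells) and 13.97 (saline), and fibroblast and scar matrix markers 8.39 and 8.30. The covariate held no markers of other cell types, so nothing on tissue makeup is concluded from it.

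Markers of 3 other cell types had mostly negative differences, and their part in the differences of PFKP, ALDOC and the other widely expressed enzymes was not tested. Of 10 tested macrophage and monocyte markers 9 were negative, with a median of -0.33, and 11 measured of 14 summed to 842 to 1490 after stem cells and 821 to 2560 after saline. Of 7 smooth muscle and pericyte markers 5 were negative (median of -0.29, 7 measured of 10, sums of 11400 to 23200 and 13500 to 26000). Of 7 tested endothelial markers 5 were negative (median of -0.19, 9 measured of 10, sums of 3300 to 5490 and 3840 to 5750). At an unadjusted p under 0.05 (limma), 3 macrophage and monocyte markers were lower and 0 higher. Among smooth muscle and pericyte markers 2 were lower, MYL9 at -0.88 ± 0.21 (SE) and CNN1 at -1.54 ± 0.69 (SE), and 0 higher. Of the endothelial markers ENG was lower, at -0.65 ± 0.29 (SE), and TEK higher, at 0.38 ± 0.17 (SE). Over all probe sets tested, 5.15% were lower and 5.4% higher at this level. In these 3 lists 0 markers passed the adjusted threshold. Red blood cell markers summed to 842 to 1470 and 722 to 1300 (4 measured of 7), and fat cell markers to 9600 to 13900 and 8480 to 13300 (5 measured of 7, with ADIPOQ at 2.70 and LEP at 2.85, near the control level). Skeletal muscle markers summed to 49.6 to 58.7 and 51.4 to 68.7 (6 measured of 10), with MYLPF at or under the control level.

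The log2 ratio of 3' to 5' control probe sets rises as RNA degrades. The ratio of the EF1A control had a stem cell mean of 0.81 ± 0.11 (SD, n = 7) and a saline mean of 0.95 ± 0.10 (SD, n = 6) (exact permutation test over 1716 splits, two-sided p of 0.046, adjusted to 0.184 over 4 measures). The actin ratio (2.89 and 3.13), the GAPDH ratio (0.53 and 0.52) and the mean of the 3 ratios (1.41 and 1.53) had exact permutation p of 0.664, 0.959 and 0.621. The highest actin ratio, 5.03, was in stem cells 2, and the GAPDH ratio was 1.12 there and in saline 2. In stem cells 4 the GAPDH ratio was 0.85, the third highest of the 13 animals, against 0.02 to 0.57 in the other 5 stem cell animals, and the actin ratio was 3.29. The part of RNA quality in the low values of these animals was not tested. With the mean ratio as a covariate 18 of 19 genes were negative. Lower at an unadjusted p under 0.05 were 4, GYS1, PFKP, ALDOC and TPI1, TPI1 at -0.31. In that fit 46.3% of all probe sets tested were negative and 6.68% were lower at this level, against 5.15% without the covariate. All tested genes with a known genomic span were ranked by it and cut into 3 equal bins. The shortest genes had a median difference of -0.17, those of middle span one of -0.04 and the longest one of 0.02. The listed genes had medians of -0.12 among the shortest, -0.23 among those of middle span and -0.19 among the longest.

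Neighbouring pathways were counted from lists of genes that the members do not include, and 0 genes in them passed the adjusted threshold. The counts at an unadjusted p under 0.05 below stand beside 5.15% of all probe sets tested lower and 5.4% higher. Among carriers of pyruvate and lactate and the switches of pyruvate oxidation, 5 of 9 tested genes were negative, with a median of -0.07. BSG, the basigin chaperone that brings lactate carriers to the membrane, was at -0.70 ± 0.20 (SE), and MPC2, a subunit of the mitochondrial pyruvate carrier, at -0.27 ± 0.10 (SE), with adjusted p of 0.393 and 0.423 (limma). These were the only genes of this list lower at an unadjusted p under 0.05, and 0 were higher. Genes of glycogen handling and its control went both ways, 8 of 15 negative with a median of -0.02. CALM3, a calmodulin gene whose protein is also a subunit of phosphorylase kinase, was at -0.88 ± 0.26 (SE) and was the gene of this list lower at an unadjusted p under 0.05. PHKA2, a regulatory subunit of that kinase, was at 0.31 ± 0.15 (SE).

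In the pentose phosphate and hexosamine list, which covers pathways branching from glycolysis, 6 of 10 tested genes were negative (median of -0.03). TALDO1, transaldolase, was at -0.44 ± 0.14 (SE), and MGEA5, which removes the sugar O-GlcNAc from proteins, at 0.43 ± 0.16 (SE), each at an unadjusted p under 0.05. Other glycolytic enzymes and regulators were negative in 5 of 8 (median of -0.04), with LDHD, which handles D-lactate, at -0.21 ± 0.11 (SE) and HK3, a hexokinase of white blood cells, at -0.39 ± 0.25 (SE). Of the other glucose carriers, 2 of 6 measured were tested. These were SLC2A3, the high-affinity carrier GLUT3, at -0.32 ± 0.30 (SE), and SLC37A4, a glucose 6-phosphate carrier of the endoplasmic reticulum, at -0.06 ± 0.10 (SE).

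Signals that govern glucose use stood near the level of all probe sets. Insulin signalling genes were negative in 6 of 14 (median of 0.04), with PDPK1, the kinase that activates AKT, at 0.32 ± 0.18 (SE) and TXNIP, an inhibitor of glucose uptake, at 0.32 ± 0.18 (SE). Hypoxia response genes outside glycolysis were negative in 6 of 14 (median of 0.02), with the growth factor VEGFA at 0.21 ± 0.13 (SE) and the carbonic anhydrase CA9 at -0.16 ± 0.10 (SE). In these lists 0 genes had an unadjusted p under 0.05. The shuttles that carry cytosolic NADH equivalents into mitochondria were negative in 6 of 9 (median of -0.02). Among them SLC25A11, the oxoglutarate and malate carrier, was at -0.71 ± 0.32 (SE), the value of this list at an unadjusted p under 0.05, and GOT2, the mitochondrial aspartate aminotransferase, at -0.13 ± 0.11 (SE).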

How the data were processed

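Per the submitters' processing notes the authors used GCRMA. What they deposited is 1 linear intensity per probe set and array. The GCRMA version and settings were not stated in the labels. GCRMA normalizes between arrays, so a change shared by most genes would not be seen. Of 24123 probe sets 124 controls were left out, and log2 was taken of the deposited intensity of the remaining 23999. A probe set was tested where its mean over 13 arrays lay above the 40th percentile (3.36), which left 14399. The comparison of the groups used limma 3.58.1 in R 4.3.3 (lmFit, eBayes with a trend) with Benjamini-Hochberg adjusted p-values, and the fit was tested on simulated data. Single array measures were compared by exact permutation.

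GAPDH control probe sets were kept out of the lead. Symbols come from the platform annotation and can be old (10069 probe sets with 1 symbol, 198 with several, 13732 with none); spans come from the Sscrofa11.1 gene table. All listed genes are named; of each neighbouring list the 2 genes with the smallest p are named. The members and lists were chosen with earlier results of these data known. Alternatives were no filter, a 60th percentile filter, a second quantile normalization, median centring, a floor at the 20th percentile, a variance without trend, array weights, a replicate block, covariates for tissue makeup and RNA quality, the mean of a gene's probe sets and leaving out each animal. Leaving out stem cells 2 and 4 together and taking GAPDH by a control probe set were added after seeing the data.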

Additional observations from a re-analysis of the deposited data

Results flagged for a closer look

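In 38 groups of animals, 19 genes in each arm, a value was marked when it stood far from the others by Dixon's criterion, which chance meets in about 1 group in 20. It marked 2. HK1 in stem cells 2 was at 10.7, with the next animal at 11.2 and the highest at 11.6. PYGM in saline 5 was at 11.1, with the next animal at 10.9 and the lowest at 10.8.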

How the results depend on the processing

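With all 13 animals in the fit and 1 choice changed at a time, 16 to 18 of 19 tested genes stayed negative (20 of 22 with no filter). The median lay between -0.221 and -0.101. The replicate block is among these fits, though stem cells 7, without a saline animal of its number, adds nothing to its differences. With 1 animal left out, 14 (without stem cells replicate 4) to 18 were negative and the median ran from -0.234 to -0.105. Without both stem cells 2 and 4 the count was 11 and the median -0.0435, and SLC2A1 (0.163), GPI (0.0339), PFKM (0.0255), TPI1 (0.0163), PGAM2 (0.0519) and ENO3 (0.104) turned positive. The count at an unadjusted p under 0.05, 2 with all animals, was 1 with array weights or the tissue makeup covariate, 4 with the 3' to 5' covariate, 3 (GYS1, PFKP and ALDOC) with no filter, the 60th percentile filter, a second quantile normalization, median centring or a variance without trend, 1 without saline replicate 1 or 2 or stem cells replicate 2, 5 or 6, and 3 without stem cells replicate 1. GYS1 was in this count in 13 of 13 fits with 1 animal left out, PFKP in 4 and ALDOC in 4. Over all the fits, 3.73% to 6.68% of all probe sets tested were lower at this level. Probe sets called over the whole array numbered 0 to 1 with 1 animal left out, the 1 without saline replicate 5. The GAPDH difference turned negative after a second quantile normalization (-0.0405) and as the mean of its probe sets (-0.1). It was also negative with the 3' to 5' covariate (-0.0215) and with the replicate block (-0.0113), which leaves stem cells 7 out of the difference. ENO3 turned positive after a second quantile normalization (0.0526) and with array weights (0.00924), and PYGM as the mean of its probe sets (0.271). With 1 animal left out, SLC2A1 ran from -0.202 to 0.0742, PFKM from -0.146 to 0.000603, ENO3 from -0.0534 to 0.0542 and GAPDH from -0.0291 to 0.0767. The cause was not tested.

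Replicate numbers other than 7 occur in both groups but are not said to pair animals. Same-numbered animals deviated together at correlations of -0.266 to 0.237. With the replicate block 18 of 19 genes were negative, the median was -0.157 and GYS1 was at -0.923. As stem cells 7 is alone in its block, these are the differences of the fit without that animal, not a separate result. SLC2A4, PFKL, SLC16A3 and the other 2 GYS1 probe sets were too dim to be tested, so nothing is said of their differences.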
